A study of Mus musculus with 12 samples.

Results

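The peroxins are the proteins that build peroxisomes, and 9 of them were followed here at the translational level in mouse liver: Pex13, Pex14, Pex5, Pex7, Pex2, Pex10, Pex3, Pex16 and Pex19. They were taken by gene symbol from the Ribo-seq table, and 9 of its 25033 entries carried these symbols. The set was chosen by the Ribo-seq RPKM of Pex13, which was far higher in the lycopene group, so that contrast of Pex13 is described without a test. The question asked of the data is whether the 8 other peroxins, called partners below, moved with it.

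Both groups were male C57BL/6 mice, which ate a high-fat diet for 8 weeks from the age of 8 weeks and were 16 weeks old when their livers were taken. The HFD group ate the high-fat diet alone and the LYC group ate it with lycopene, the red carotenoid of tomato. Each group had 3 Ribo-seq libraries, made from the stretches of mRNA that ribosomes shield from nuclease, and 3 libraries labelled RNA-seq, 12 libraries in all. For LYC the treatment field of the labels gives the high-fat diet without lycopene, which is known from the sample titles and the study. The labels speak of pooled material, while the titles carry a number each in brackets, which was read here as a mouse number. If the libraries did not come from separate mice, the p-values below measure only the spread between libraries.

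Peroxisomes shorten very long and branched fatty acids, make ether lipids and take part in bile acid synthesis, and liver cells are rich in them. Their matrix enzymes are made in the cytosol and carried in by the receptors Pex5 and Pex7. The receptors dock on the membrane at Pex13 and Pex14, and a RING finger complex that includes Pex2 and Pex10 marks Pex5 with ubiquitin for its return to the cytosol. Pex3, Pex16 and Pex19 place proteins in the peroxisomal membrane itself.

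Levels below are given in RPKM, which are reads scaled to gene length and to the library total. An order of genes by level holds for this scaling only. The Ribo-seq libraries recovered from these values hold 834389 to 4405457 reads in HFD and 311042 to 412104 reads in LYC. Read depth thus differed by group, with a median in HFD 6.91 times that in LYC, and depth and diet cannot be told apart. A single read on a gene of 1 kilobase is worth 0.227 to 1.20 RPKM in HFD and 2.43 to 3.21 RPKM in LYC. A gene was called where limma, on log2(RPKM + 1) after TMM scaling between libraries, gave a difference beyond 1 in either direction with a p under 0.01 before adjustment. Of the 5657 genes tested, 7.11% had a call in the higher direction and 6.35% in the lower one. The summed level of 6 hepatocyte markers was 36989 to 41110 RPKM in HFD and 26673 to 34056 RPKM in LYC, as deposited. By the scaled values 2 of these 6 were called higher, beside 7.11% of all genes, so the sum and the calls ran in opposite directions. No marker was called among 6 macrophage, 6 stellate and 6 endothelial markers, of which 4, 3 and 6 were tested. Of 5 red cell markers, 1 of the 3 tested was called higher, beside the same 7.11%. None of 5 bile duct and 5 lymphocyte markers passed the filter, and the bile duct markers Krt19, Krt7 and Epcam were listed at 0 in all 3 LYC libraries. The part of cell mixture in the results was not tested. In such bulk liver samples, fewer cells of a type and less RNA per cell cannot be told apart.

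Pex13, a docking protein of the peroxisomal membrane, had 48.1, 28.3 and 47.3 RPKM in the 3 HFD libraries. In the 3 LYC libraries it had 727, 1297 and 1036 RPKM. Every LYC library stood above every HFD library, and the lowest LYC value was many times the highest HFD value. The means were 41.2 ± 11.2 (SD, n = 3) in HFD and 1020 ± 286 (SD, n = 3) in LYC, a ratio of 24.7. In reads, Pex13 held 428, 407 and 129 in HFD and 936, 1318 and 1395 in LYC, although the LYC libraries were the shallower ones. It took 0.237% to 0.424% of the reads of a LYC library and 0.00924% to 0.0157% of those of an HFD library. On the log2(RPKM + 1) scale after TMM scaling, the difference was 4.89 (SE 0.32), the 23rd highest of the 5657 genes tested. This value chose Pex13 and supports nothing further. Every LYC library stood above every HFD library in RPKM in 10.0% of the genes tested and below it in 27.6%.

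**Figure D1:**
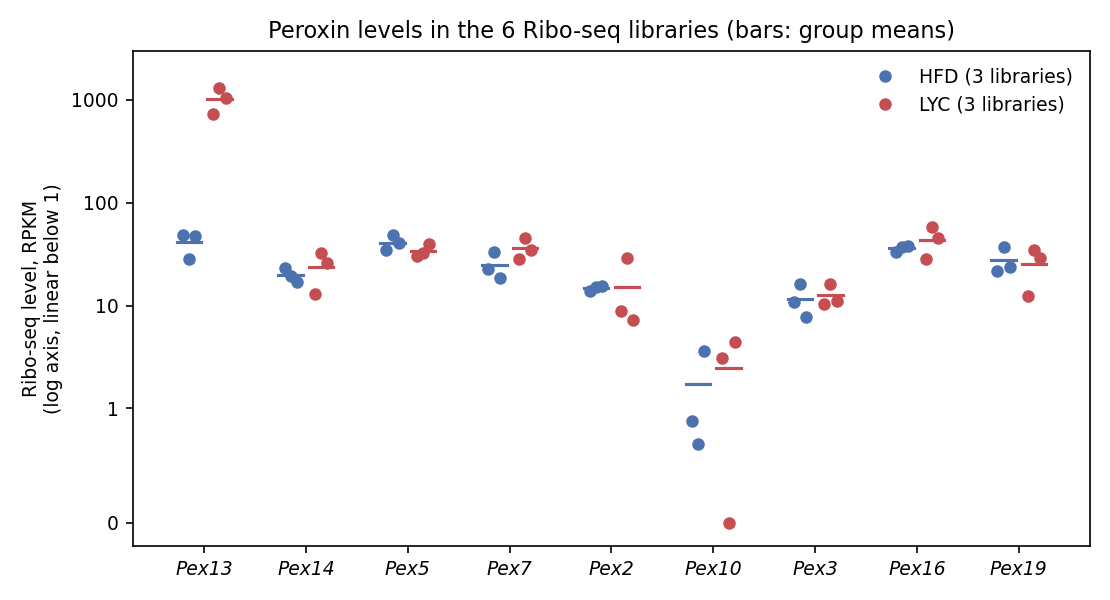
Ribo-seq level of each peroxin in RPKM (log axis, linear below 1), with a point for each of the 3 HFD (blue) and 3 LYC (red) libraries and a bar at each group mean. Pex13 stands at 28.3 to 48.1 RPKM in HFD and 727 to 1297 RPKM in LYC, while the points of the 2 groups overlap for each of the 8 partners.

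No partner came near the difference of Pex13. The 2 groups overlapped in RPKM for 8 of 8 partners, and none of the 7 partners that passed the filter on low values was called in either direction by limma. At an unadjusted p under 0.05, 1 of the 7, Pex7, passed with limma, with edgeR and with DESeq2 on the recovered reads, beside 30.2% of all genes with limma. With limma this count was 3 without LYC replicate 1 (Pex14, Pex16 and Pex7) and 0 without HFD replicate 3 or without TMM scaling. Across the whole table, 13.5% of the genes were called in either direction, so 0 of 7 is near this background. The median log2 difference of the 7 partners was 0.42, beside -0.09 over all genes tested. The values of the 7 ran from 0.04 to 0.83. Their median was 0.14 without TMM scaling, beside -0.35 over all genes, and 0.28 without HFD replicate 2, 0.20 without HFD replicate 3 and 0.24 without LYC replicate 2. Pex5, Pex2 and Pex19 were below 0 in some of these settings.

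Pex14 forms the docking complex together with Pex13. It had 23.2, 19.6 and 17.0 RPKM in HFD and 12.8, 32.6 and 25.8 RPKM in LYC. The lowest and the highest of its 6 values were both LYC libraries. Its log2 difference was 0.44 (SE 0.33, limma adjusted p = 0.405). It was 0.73 without LYC replicate 1, 0.28 without HFD replicate 2, 0.24 without LYC replicate 2 and 0.16 without TMM scaling. The level of Pex13 was 1.45 to 2.78 times that of Pex14 in the HFD libraries and 39.8 to 56.5 times in the LYC libraries.

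Pex5 is the receptor for matrix proteins that end in the common peroxisomal signal, and Pex7 is the receptor for those with a signal near their start. Pex5 had 34.4, 48.1 and 40.5 RPKM in HFD and 30.5, 32.4 and 39.5 RPKM in LYC, with a log2 difference of 0.04 (SE 0.24, limma adjusted p = 0.940). Of its LYC libraries, 2 lay below all HFD libraries. Pex7 had 22.7, 33.3 and 18.4 RPKM in HFD and 28.1, 45.8 and 34.6 RPKM in LYC, and 2 of its 3 LYC libraries stood above all HFD libraries. Its log2 difference of 0.83 (SE 0.26) was the largest among the partners, and it was 0.54 without TMM scaling. It missed both limits of a call, with an unadjusted limma p of 0.0123, and its adjusted p was 0.0743. With the replicate number as a block this adjusted p was 0.106, and over the other settings it ranged from 0.0571 with DESeq2 to 0.287 without TMM scaling.

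Pex2 and Pex10 are RING finger proteins of the complex that recycles the receptor. Pex2 had 13.7, 15.2 and 15.6 RPKM in HFD and 8.86, 28.9 and 7.27 RPKM in LYC. The LYC libraries fell on both sides of the narrow HFD range, with 7, 18 and 6 reads behind them. Its log2 difference was 0.04 (SE 0.44, limma adjusted p = 0.964), and it was -0.47 without LYC replicate 2. Pex10 had too few reads for the filter. It had 4, 5 and 5 reads in HFD, which gave 0.891, 0.689 and 3.64 RPKM. In LYC it had 2, 0 and 3 reads, which gave 3.08, 0 and 4.42 RPKM. A count of 0 in LYC replicate 2 allows a level of up to 5.86 RPKM, as 3 reads would give, so small differences were not detectable at this depth. An exact permutation test, two-sided, gave p = 0.8 for Pex10, where 3 against 3 libraries cannot go below 0.1.

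Pex3, Pex16 and Pex19 serve the membrane. Pex3, the membrane anchor for Pex19, had 10.9, 16.1 and 7.70 RPKM in HFD and 10.5, 16.2 and 11.1 RPKM in LYC. Its log2 difference was 0.42 (SE 0.31, limma adjusted p = 0.397), and it was 0.20 without HFD replicate 3 and 0.14 without TMM scaling. Pex16, which recruits Pex3, had 33.5, 37.4 and 37.9 RPKM in HFD and 28.1, 57.7 and 45.6 RPKM in LYC. It differed by 0.50 (SE 0.27, limma adjusted p = 0.248), with 1 LYC library below all HFD libraries and the other 2 above them. With the length trend removed it was at 0.29, and without TMM scaling at 0.21. Pex19, the soluble carrier of membrane proteins, had 21.7, 37.1 and 23.9 RPKM in HFD and 12.4, 34.9 and 28.9 RPKM in LYC. It differed by 0.09 (SE 0.35, limma adjusted p = 0.894). For Pex5, Pex2 and Pex19 the sign of the difference turned negative without TMM scaling, a setting under which the median of all genes was -0.35. Relative to that median they were at 0.10, 0.12 and 0.16.

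**Figure D2:**
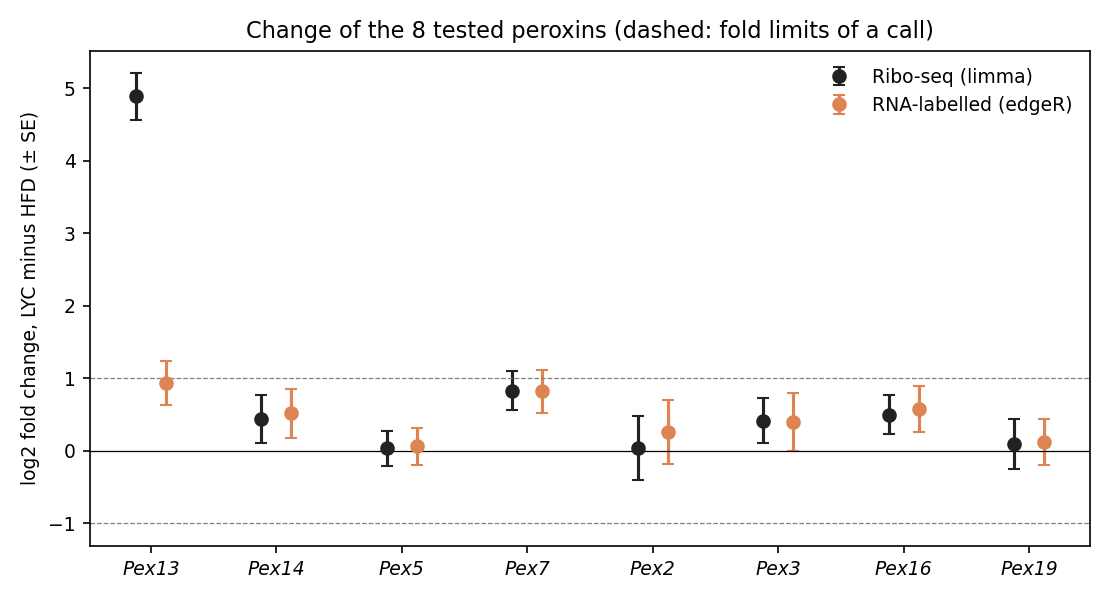
log2 fold change, LYC minus HFD, of the 8 tested peroxins with its standard error, in the Ribo-seq libraries (black) and in the libraries labelled RNA-seq (orange), with dashed lines at the fold limits of a call. Pex13 stands at 4.89 in Ribo-seq and 0.94 in the libraries labelled RNA-seq, and the partners lie between 0.04 and 0.83 in both.

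In RPKM, Pex13 had the highest mean level of the 9 in both groups. In HFD the mean levels ran from Pex13 (41.2 RPKM) and Pex5 (41.0 RPKM) through Pex16, Pex19, Pex7, Pex14, Pex2 and Pex3 to Pex10 (1.74 RPKM). Neighbours in this order overlapped in their libraries, except Pex14 with Pex2 and Pex3 with Pex10. In LYC Pex13 was followed at a distance by Pex16 (43.8 RPKM), Pex7, Pex5, Pex19, Pex14, Pex2, Pex3 and Pex10 (2.50 RPKM). There only Pex13 with Pex16 and Pex3 with Pex10 did not overlap. The levels of the 8 partners summed to 161, 208 and 165 RPKM in HFD and to 134, 249 and 197 RPKM in LYC.

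The other peroxins were counted in the same way. All 8 of the list were found in the table and 5 passed the filter, of which 0 were called with limma, edgeR or DESeq2, beside 13.5% of all genes with limma, so this count is near the background. At an unadjusted p under 0.05 limma found 1 of the 5, Pex11a, beside 30.2% of all genes. This count was 3 of 6 without LYC replicate 2, and 0 with any other single library left out, with the replicate block or without TMM scaling. The ATPase Pex6, which pulls the receptor out of the membrane, had a mean of 21.0 ± 0.79 RPKM (SD, n = 3) in HFD and 13.4 ± 5.0 RPKM (SD, n = 3) in LYC (log2 difference -0.39, limma adjusted p = 0.402). Of the division factors of the Pex11 family, Pex11a stood at 0.62 (limma adjusted p = 0.163) and Pex11g at -0.45 (limma adjusted p = 0.419). Pex26, the membrane anchor of Pex6, was too low to be tested, with a mean level of 5.45 RPKM in HFD and 2.45 RPKM in LYC. Pex5l was listed at 0 in all 6 libraries.

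The enzymes that the import machinery delivers were counted next. Of 23 tested matrix enzymes of fatty acid oxidation, 3 rose and 0 fell, or 13.0% called higher, beside 7.11% of all genes. The count of 3 became 5 without LYC replicate 1 and 2 without TMM scaling. The list's median log2 difference was 0.38, and 0.088 without TMM scaling, where that of all genes was -0.35. The RPKM means given here are as deposited, while the log2 differences are after TMM scaling and so exceed the log2 ratio of the means. Phyh, which hydroxylates branched phytanoyl-CoA, rose from 608 ± 74 RPKM (SD, n = 3) to 1386 ± 236 RPKM (SD, n = 3), a log2 difference of 1.48 (limma adjusted p = 0.00898). Hsd17b4, the second enzyme of peroxisomal beta-oxidation, rose from 178 ± 38 RPKM (SD, n = 3) to 327 ± 54 RPKM (SD, n = 3), by 1.18 on the log2 scale (limma adjusted p = 0.0141). Eci2, an enoyl-CoA isomerase, rose from 58.4 ± 18.2 RPKM (SD, n = 3) to 142 ± 55 RPKM (SD, n = 3), by 1.52 (limma adjusted p = 0.0189). Among the uncalled enzymes the thiolase Scp2, the most abundant, was at 0.70 (limma adjusted p = 0.111).

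Of 26 other tested matrix enzymes, 3 rose and 0 fell, or 11.5% called higher, beside 7.11% of all genes, with a median of 0.40. This median was 0.11 without TMM scaling, 0.26 without LYC replicate 1 and 0.25 without LYC replicate 2. Without TMM scaling 1 was called higher and 2 lower, and without LYC replicate 1 there were 2 and 1. Without LYC replicate 3 there were 4 and 1, and without HFD replicate 1 there were 2 and 0. Idh1, which makes NADPH, differed by 1.22 (limma adjusted p = 0.0153). Hao1, the glycolate oxidase, differed by 1.31 (limma adjusted p = 0.0180). Uox, the urate oxidase, differed by 1.28 (limma adjusted p = 0.0346) and was no longer called without HFD replicate 1 or 3, without LYC replicate 1 or 2, or without TMM scaling. Hsd17b4 and Idh1 also fell short of a call without TMM scaling, at 0.89 and 0.93 on the log2 scale. Catalase (Cat), the enzyme that breaks down hydrogen peroxide, was at 1121 ± 132 RPKM (SD, n = 3) in HFD and 1129 ± 187 RPKM (SD, n = 3) in LYC, a log2 difference of 0.30 (limma adjusted p = 0.411). Sod1, a superoxide dismutase, was at 0.75 (limma adjusted p = 0.1001).

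Of 11 tested peroxisomal membrane proteins, 0 rose and 2 fell, or 18.2% called lower, beside 6.35% of all genes, and the median was -0.21. This median was -0.49 without TMM scaling, -0.32 without HFD replicate 2 and -0.10 without LYC replicate 2. The count of 2 became 0 without HFD replicate 1 or 3, 1 without HFD replicate 2, with the replicate block or without the filter, and 3 without LYC replicate 1 or without TMM scaling. Pxmp4, a membrane protein, decreased by 1.14 on the log2 scale (limma adjusted p = 0.0298), a call that was lost without HFD replicate 1 or 3. The acyl-CoA synthetase Slc27a2 was at -0.46 (limma adjusted p = 0.308) and the transporter Abcd3 at 0.83 (limma adjusted p = 0.0739). Of 5 tested division factors 1 was called higher (20.0%, beside 7.11% of all genes). This gene, Dnm1l, the dynamin that cuts peroxisomes and mitochondria, rose from 7.28 ± 0.98 RPKM (SD, n = 3) to 17.5 ± 3.2 RPKM (SD, n = 3), by 1.42 (limma adjusted p = 0.0227). Acbd5, a tether to the endoplasmic reticulum, and Fis1, a receptor for Dnm1l, were at 0.44 and 0.51 (limma adjusted p = 0.226 and 0.409). Over the 70 genes of the 5 lists besides the members, 7 were called higher (10.0%, beside 7.11% of all genes) and 2 lower (2.86%, beside 6.35%). These counts became 4 and 5 without TMM scaling. The lower count became 0 without HFD replicate 1 or 3, 1 without HFD replicate 2, with the replicate block or without the filter, 3 without LYC replicate 3 and 4 without LYC replicate 1.

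**Figure D3:**
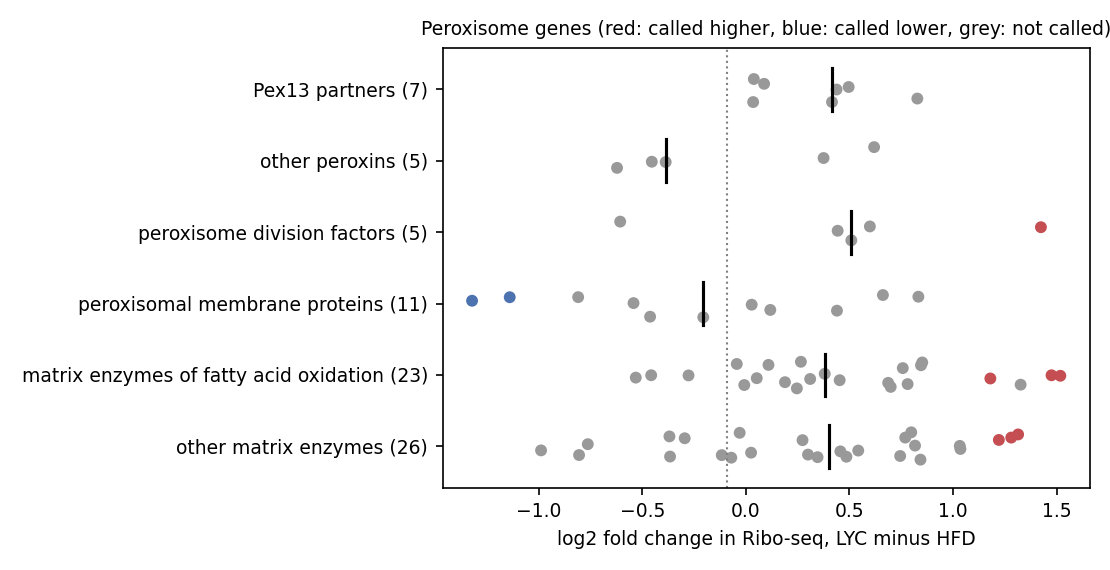
log2 fold change in Ribo-seq, LYC minus HFD, of each tested peroxisome gene by list, with the number tested in brackets, a black bar at the list's median and a dotted line at the median of all 5657 genes (-0.09). Red points were called higher (0 of 7 partners, 1 of 5 division factors, 3 of 23 and 3 of 26 matrix enzymes, beside 7.11% of all genes) and blue points lower (2 of 11 membrane proteins, beside 6.35%).

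The libraries labelled RNA-seq were compared in the same way, since they would show whether the Pex13 difference was present in total mRNA. By the deposited counts, Pex13 had 287, 52 and 181 reads in HFD and 47, 21 and 41 reads in LYC. Its levels were 18.6, 19.8 and 18.6 RPKM in HFD and 21.4, 11.0 and 18.3 RPKM in LYC, so the groups overlapped. In RPKM as deposited, 4 of the members (Pex14, Pex5, Pex19 and Pex16) had every LYC library below every HFD library and none had every one above, beside 65.2% and 3.06% of the genes tested. The edgeR log2 difference after TMM scaling was 0.94 (SE 0.30, adjusted p = 0.0410), under the fold limit of a call. It turned to -0.16 without TMM scaling, where the median of all genes was -1.11, and the adjusted p was 0.0876 with the replicate block and 0.138 without the filter. None of the 8 members tested was called by edgeR, beside 9.31% of the 5921 genes tested called higher and 7.33% called lower (16.6% in all). Pex13 and Pex7 had an unadjusted p under 0.05, at 0.00680 and 0.0136 by edgeR, or 2 of 8 members beside 33.4% of all genes. Without LYC replicate 2, Pex13 passed the call at 1.19 (adjusted p = 0.00699 by edgeR). With any of the other 5 libraries left out its edgeR adjusted p was 0.0554 to 0.199, and without LYC replicate 1 the difference was 0.66. The partners stood between 0.06 for Pex5 and 0.82 for Pex7, beside 0.04 to 0.83 in Ribo-seq.

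The tables held largely the same read numbers, however. In the LYC libraries, 8 of 8 partners had exactly the same number of reads in both tables, library by library. Pex14 had 10, 20 and 21 reads in both, Pex5 had 37, 31 and 50, Pex19 had 14, 31 and 34, and Pex10 had 2, 0 and 3. Of 6814 genes with at least 20 LYC reads over both tables, 67.8% had the same reads in all 3 LYC libraries, and 87.8% had sums within 10% of each other. Across 24586 genes, the log2(RPKM + 1) of each LYC library labelled RNA-seq correlated best with the Ribo-seq library of its own number (r = 0.928 to 0.932, the next at 0.856 to 0.865). The HFD libraries labelled RNA-seq 1, 2 and 3 correlated best with Ribo-seq 2, 3 and 1 (r = 0.950 to 0.958), by a narrower margin over the next at 0.930 to 0.939. The reads followed the same order. Pex14 had 179, 28 and 125 in HFD 1, 2 and 3 labelled RNA-seq, and 170, 28 and 125 in Ribo-seq HFD 2, 3 and 1. An HFD replicate or bracketed number thus need not mark the same material in both tables, and the libraries were not re-paired. Genes are not independent replicates, and these correlations describe the tables only. The values of the partners in the libraries labelled RNA-seq were therefore not read as a second measurement, and no translational efficiency was computed.

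Pex13 was the exception among the members. Its LYC reads were 3649 in the Ribo-seq table and 109 in the other table, a ratio of 33.5, and its HFD reads were 964 and 520, a ratio of 1.85. The partners' HFD reads had ratios of 0.961 to 1.0. By the ratio of LYC reads (1 added to each sum), Pex13 ranked 2nd of the 6814 genes, and the only gene above it was Pgm2 with 343 and 2 reads. The large Pex13 difference between the diets was thus present in the reads of the Ribo-seq table and not in those of the table labelled RNA-seq. Both tables used the same gene length of 3266 bases for Pex13. How the 2 tables came to differ was not tested.

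**Figure D4:**
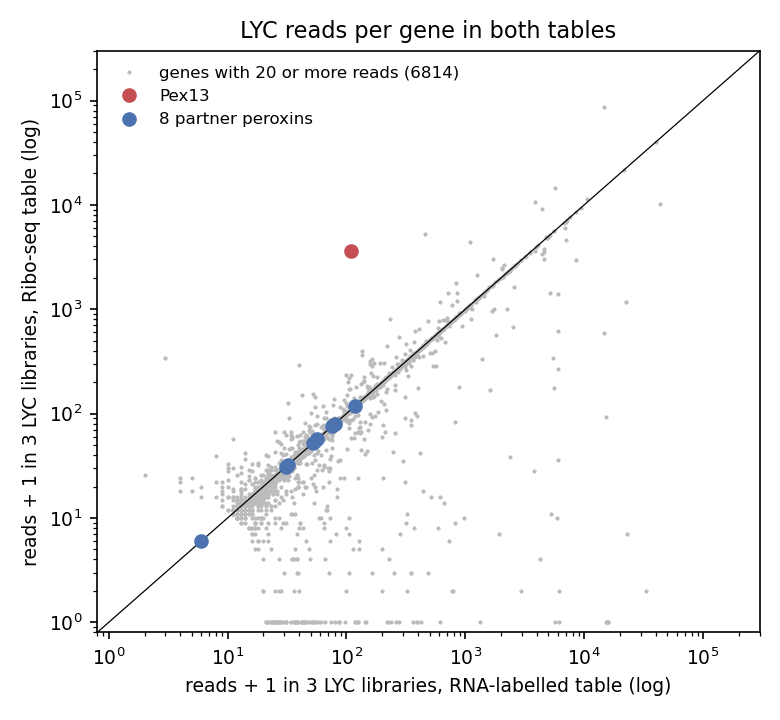
Reads plus 1 of each gene summed over the 3 LYC libraries in the table labelled RNA-seq (x, log axis) and in the Ribo-seq table (y, log axis), with a line of equal reads and a grey point for each of the 6814 genes with at least 20 reads over both. The 8 partners (blue) lie on the line, and Pex13 (red) lies above it with 3649 against 109 reads.

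The gene length by which the Ribo-seq values were scaled equals that of a RefSeq isoform for 9 of 9 peroxins. For 8 of them this is a coding isoform with its untranslated regions, and for Pex16 it is a non-coding isoform of 1171 bases. A length used for scaling does not show where in a gene the reads lay. Pex13 lies on chromosome 11 at 23646843 to 23665883 on the minus strand of GRCm38.p6 (gene ID 72129), with 4 exons in the isoform of 3266 bases. Its coding sequence covers bases 40 to 1257, and 2009 bases of 3′ untranslated region follow. The other genes lie on chromosomes 4 (Pex14 at 148960535 to 149099843 and Pex10 at 155067030 to 155072406), 6 (Pex5 at 124396816 to 124415944), 10 (Pex3 at 13523842 to 13553142 and Pex7 at 19860090 to 19907674), 3 (Pex2 at 5560188 to 5578596), 2 (Pex16 at 92374676 to 92381220) and 1 (Pex19 at 172126755 to 172136497). The RefSeq gene Pus10, a pseudouridine synthase on the plus strand, overlaps Pex13 by 7293 bases. Pus10 had 7, 11 and 9 reads in the LYC Ribo-seq libraries and a log2 difference of 0.97 (limma adjusted p = 0.0921). Whether strand was used in the counting is not given in the sources used here.

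The Pex13 mRNA was searched for stretches that also occur elsewhere in the genome, since a footprint is short and a read from a repeated stretch can be placed on several genes. Of its 3239 windows of 28 bases, 427 (13.2%) occurred more than once on the assembled chromosomes, either strand counted. Within the coding sequence 205 of 1191 windows did. The most copied window, at base 3227 near the 3′ end, had 34666 copies. Of the partners, Pex3 had a similar share of repeated windows (13.6%), none with more than 2 copies. Pex10 had 3.0% and the other partners 0% to 0.46%, and their most copied window had at most 104 copies. The most copied Pex13 window, or its reverse complement, stood in the annotated transcripts of 219 other genes tested. Of these, 12 were called higher (5.48%, beside 7.11% of all genes) and 13 lower (beside 6.35% of all genes).

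**Figure D5:**
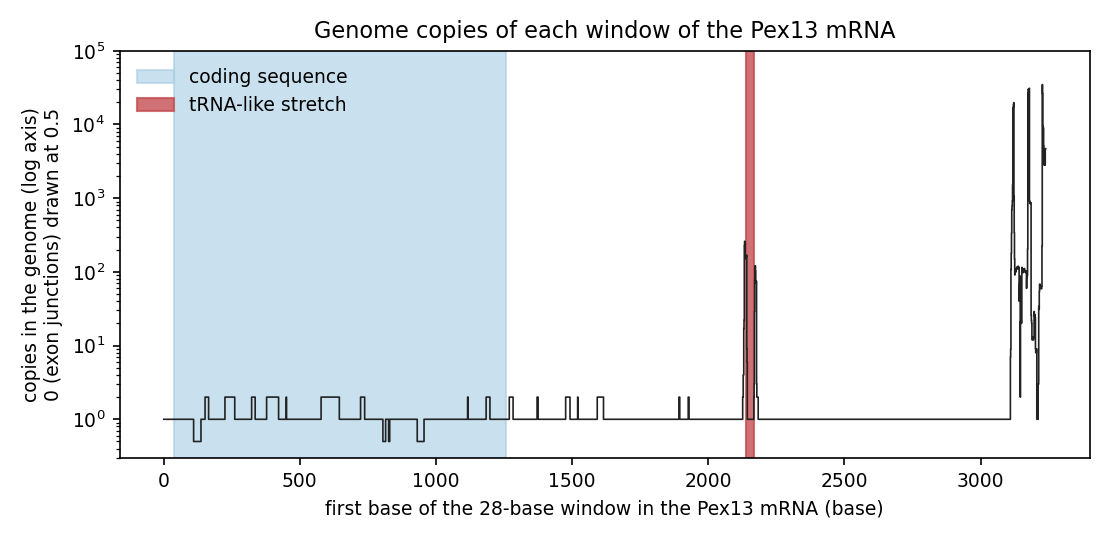
Copies in the genome (log axis, 0 drawn at 0.5) of each 28-base window of the Pex13 mRNA, by the base at which the window starts, with the coding sequence shaded blue and the stretch that resembles a tRNA shaded red. Most windows have 1 copy, and the most copied ones, up to 34666 copies, lie near the 3′ end.

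One stretch of the Pex13 3′ untranslated region, bases 2139 to 2168, resembles the start of a tRNA gene for alanine, n-TAagc8. Both sequences are shown because no partner held a tRNA match this close, and the bases in capitals are those that differ. The Pex13 stretch lies at chr11:23648381-23648410 (minus strand) and the tRNA stretch at chr4:132516008-132516037 (plus strand), both of GRCm38.p6 and read from the RefSeq genome:
Pex13 mRNA: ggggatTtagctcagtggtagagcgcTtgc
n-TAagc8: ggggatGtagctcagtggtagagcgcAtgc
They match at 28 of 30 bases, with the differences G7T and A27T counted from base 1 of the tRNA gene, the tRNA base first. The best match of any partner to any of 243 tRNA sequences was 25 of 30 bases, for Pex10, and 20 to 23 for the others. Among 5616 tested genes with an annotated transcript, 9 (0.16%) held a match of at least 28 of 30 bases on the transcribed strand. Leaving out Pex13, which prompted the search, 1 of the other 8 was called higher, Gm29681 (log2 difference 3.13), beside 7.11% of all genes. The remaining 7 ranged from -1.09 for Crebbp to 0.55 for B230208H11Rik. Pex13 also matched the hairpin of the miRNA gene Mir5098 at 28 of 30 bases, at bases 3152 to 3181 within its repeated 3′ end, where no partner matched any miRNA hairpin at more than 25. Such a match to Mir5098 was common, with 432 other tested genes, of which 22 were called higher (5.09%, beside 7.11% of all genes). These likenesses are descriptions of the sequence, and their part in the Pex13 reads was not tested, as the files give no positions of reads within a gene.

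The genes whose Ribo-seq profile was most like that of Pex13 were sought by Euclidean distance between centred log2 values over the 6 libraries. They were Car9 (distance 0.40), Scarna17 (0.82), Snora30 (1.01), Scarna3a (1.06) and Mir148a (1.14). Car9 encodes a carbonic anhydrase, and the other 4 are genes of small non-coding RNAs. The Car9 mRNA matched the Mir5098 hairpin at 30 of 30 bases, from the same hairpin base 51 as Pex13, and its best tRNA match was 22 of 30. No listed peroxisome gene was among these 5, but this follows from the choice of Pex13 and is not a result. The highest log2 difference of the listed peroxisome genes was 1.52, beside 4.89 for Pex13, so none could come this close. Car9 had 81.3, 59.8 and 81.4 RPKM in HFD and 1246, 2046 and 1472 RPKM in LYC. Mir148a had 574, 445 and 375 RPKM in HFD and 9654, 7631 and 9853 RPKM in LYC. Unlike Pex13, all 5 were also high in LYC in the table labelled RNA-seq. There Car9 had 48.0, 81.1 and 67.2 RPKM in HFD and 1034, 1275 and 1208 RPKM in LYC. As for the partners, this was not read as a second measurement. Scarna17 had 18, 15 and 25 LYC reads in both tables, and Snora30 had 36, 22 and 50. The LYC reads of Car9, Scarna3a and Mir148a differed between the tables.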

How the data were processed

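Livers of the HFD and LYC groups gave 6 Ribo-seq libraries, for which the authors deposited RPKM values, and 6 libraries labelled RNA-seq, for which read counts and RPKM were deposited. Per the labels and the study's methods, reads were processed with cutadapt and Bowtie2, aligned with STAR to GRCm38 (mm10) and quantified with FANSE2. Versions are not given in the sources used here.

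Whole reads were recovered from the Ribo-seq RPKM for 15749 genes above 0, within 0.04 of a read plus 3e-05 of the read number. Of these genes, 4509 needed a fitted gene length, and their reads were those of the smallest length that gave whole reads. Of 25033 entries, 4 that shared a name were left out. RPKM were divided by TMM factors of these reads, 1 was added, and log2 values were fitted with limma 3.58.1 on 5657 genes that passed edgeR's filterByExpr. The added 1 understates changes of low genes. Counts were fitted with edgeR 4.0.16 (quasi-likelihood) on 5921 genes. Tests were two-sided, with Benjamini-Hochberg adjustment over all genes tested. A call needed a log2 difference beyond 1 and p under 0.01 before adjustment. Both fits were tested on simulated data.

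The members and the gene lists were chosen with earlier results of these data known. Named were the members, the other peroxins, the called genes of each peroxisome list (up to 4 in a direction) with up to 2 of its most abundant others, the 5 genes most like Pex13, and its neighbour. Some genes that this rule covers are counted in their lists but are not reported here by name. Pgm2, Gm29681, Crebbp and B230208H11Rik were chosen after their values were seen. Alternatives were no TMM scaling, a pseudocount of 0.1, no filter, edgeR or DESeq2 1.42.0 on reads, p under 0.001, removal of the length trend, a replicate block, and leaving out each library.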

Additional observations from a re-analysis of the deposited data

How the results depend on the processing

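The count of 0 called partners in Ribo-seq held under all alternatives run. Depth limits the partners, since a LYC library held 6 to 50 reads on each tested partner. Over all genes, 402 were called higher and 359 lower in Ribo-seq. These became 234 and 655 without TMM scaling, 199 and 103 at p below 0.001, 710 lower without the filter, and 273 to 559 higher and 146 to 740 lower with a library left out. In the libraries labelled RNA-seq, 551 were higher and 434 lower, and these became 134 and 2760 without TMM scaling, 362 and 167 at p below 0.001, 988 lower without the filter, and 453 to 691 higher and 318 to 577 lower with a library left out. Members called there numbered 0, with 1 lower (Pex5) without TMM scaling and 0 to 1 higher with a library left out. Without TMM scaling the Ribo-seq differences of Pex5, Pex2 and Pex19 were -0.25, -0.23 and -0.19. In the libraries labelled RNA-seq, those of Pex13, Pex14, Pex5, Pex2, Pex3, Pex19, Pex16 and Pex7 were -0.16, -0.54, -1.03, -0.82, -0.69, -0.96, -0.50 and -0.27, and without the filter Pex5 and Pex19 were at -0.11 and -0.058. With a library left out, Ribo-seq values ranged from -0.10 to 0.13 for Pex5, -0.47 to 0.36 for Pex2 and -0.13 to 0.44 for Pex19, and those labelled RNA-seq from -0.035 to 0.17, -0.46 to 0.63 and -0.066 to 0.40. The cause was not tested. In the titles, the same replicate number goes with different bracketed numbers in HFD and LYC, read here as mouse numbers. Libraries of the same replicate number had deviations that correlated at -0.0046 to 0.11 in Ribo-seq. With the replicate block, 399 genes were higher and 339 lower in Ribo-seq and 486 and 373 in the libraries labelled RNA-seq, and no member's call changed.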
